A study of Mus musculus with 12 samples.

Results

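The integrin and laminin genes are the 37 rows whose symbol is that of an integrin alpha chain (18 genes), an integrin beta chain (8 genes) or a laminin chain (11 genes), out of 27825 genes in the table. The rule reads the symbol and no measured value, and the set was proposed with earlier results of these data known. All 37 passed the filter for testing, a mean of at least 10 normalized counts over the 12 libraries, and the member with fewest reads still had 229 reads over all libraries. In epididymal fat, limma called 9 members different from mesentery on chow and 5 on high fat diet, beside 12.8% and 8.34% of all genes. These were led by a lower level of Lama3 and a higher level of Lamc3, 2 laminin chains. For diet limma called 0 members in either tissue, beside 0.0135% of all genes in mesentery and 0.549% in epididymal fat. DESeq2 called 2 members for diet in epididymal fat, beside 4.29% of all genes. A call is limma's throughout, at an adjusted p under 0.05, unless another tool is named.

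Integrins are surface receptors made of 1 alpha and 1 beta chain that tie a cell to the matrix or to other cells. Laminins are secreted proteins built from an alpha, a beta and a gamma chain, and they form the sheet-like network of the basement membrane on which vessel endothelium sits. Laminins with the alpha chains Lama4 and Lama5 are those known for vessel basement membranes, and endothelial cells bind them mainly through integrins that contain Itga6 or Itga3. A further group of integrins is restricted to blood cells, where beta chain Itgb2 pairs with the alpha chains Itgal, Itgam, Itgax and Itgad.

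Messenger RNA was measured by bulk RNA-seq in sorted fluorescent cells of male ROSA26-eYFP+/+ Cdh5-CreERT2+ mice, in which a Cre recombinase driven by Cdh5, a gene of endothelial junctions, turns on yellow fluorescent protein once tamoxifen is given. Each library pooled the tissue of 6 mice. The 4 groups of 3 libraries, labelled A, B and C, are mesentery on normal chow, mesentery on high fat diet, epididymal fat on normal chow and epididymal fat on high fat diet. All groups carry both alleles. Tamoxifen food began in every group at an age of 6 weeks and lasted 2 weeks. At 8 weeks the animals moved to chow (5.8% fat) or the high fat diet (60% fat), which they ate for 12 to 13 weeks. Mesentery is the sheet of tissue through which vessels reach the intestine, and the epididymal pad is a fat depot beside the testis. The protocol speaks of 2 independent replicates while the titles give 3 letters, so the p-values measure the spread between these libraries, which may in part be technical.

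The libraries held 8348897 to 25397963 reads in listed genes, and members took 0.126% to 0.168% of them. The 10 endothelial markers were present in all libraries, with summed levels of 109678 to 159052 normalized counts in mesentery on chow, 104574 to 123606 in mesentery on high fat diet, 80217 to 97226 in epididymal fat on chow and 44116 to 85092 in epididymal fat on high fat diet. Markers of other cells were present as well. Of 5 red blood cell markers 4 were in the table. They summed to 177 to 411 in mesentery and 31944 to 44020 in epididymal fat. All 4 were called higher in epididymal fat on both diets, and the part of blood in the member values was not tested. In these bulk samples, fewer cells of a type and less RNA per cell cannot be told apart. Libraries with the numbers 87 and 88 in their descriptions, 1 per group, stood apart from those numbered 50 to 53: between the 2 ranges 1022 genes passed the test, and among members it was Lama1 alone (log2 change 3.39, adjusted p = 0.0415, limma).

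Promoters are printed for the members that differed between tissues on chow and for which an entry was matched, since they fall into a pair that was lower and a pair that was higher in epididymal fat. Entries were matched for 23 of the 37 members. The sequences are from RefSeq, build GRCm38.p6, which is an older build than the mm39 named in the submitters' processing notes, and each covers the 250 bases before the annotated start. Capitals mark the GC box, searched as GGGCGG on both strands. The first pair, Itga1 at chr13:115101965-115102214 on the minus strand and Lamb1 at chr12:31265043-31265292 on the plus strand, belongs to genes that were lower in epididymal fat.
Itga1: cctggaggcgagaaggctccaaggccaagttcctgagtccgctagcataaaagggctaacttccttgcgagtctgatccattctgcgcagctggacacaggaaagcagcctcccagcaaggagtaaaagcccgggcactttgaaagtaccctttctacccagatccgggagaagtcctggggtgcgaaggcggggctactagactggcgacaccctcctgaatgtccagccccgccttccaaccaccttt
Lamb1: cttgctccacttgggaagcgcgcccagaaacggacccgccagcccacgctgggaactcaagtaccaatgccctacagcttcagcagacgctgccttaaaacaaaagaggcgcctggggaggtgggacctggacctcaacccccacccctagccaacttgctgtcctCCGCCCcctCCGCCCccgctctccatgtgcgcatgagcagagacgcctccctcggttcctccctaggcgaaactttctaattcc
The second pair, Itgb5 at chr16:33829415-33829664 on the plus strand and Lama2 at chr10:27616943-27617192 on the minus strand, belongs to genes that were higher in epididymal fat.
Itgb5: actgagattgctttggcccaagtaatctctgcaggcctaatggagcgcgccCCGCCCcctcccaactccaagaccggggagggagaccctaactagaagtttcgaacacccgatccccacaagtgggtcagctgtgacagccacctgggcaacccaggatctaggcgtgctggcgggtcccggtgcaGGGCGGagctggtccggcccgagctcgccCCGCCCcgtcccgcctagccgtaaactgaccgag
Lama2: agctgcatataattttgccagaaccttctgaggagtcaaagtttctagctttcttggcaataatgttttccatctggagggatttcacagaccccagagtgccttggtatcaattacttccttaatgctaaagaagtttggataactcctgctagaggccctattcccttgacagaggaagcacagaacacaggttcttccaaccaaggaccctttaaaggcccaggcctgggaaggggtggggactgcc

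The GC box occurred 3 times in the Itgb5 window and 2 times in the Lamb1 window, and had no match in those of Itga1 and Lama2. Of 32851 mouse promoter windows of the same length, 32.7% hold this motif, as do 9 of the 26 windows of the members. CpG pairs, which are the sites of DNA methylation, numbered 18 for Itgb5, 14 for Lamb1, 10 for Itga1 and 0 for Lama2, against a median of 6 over all windows, 92.1% of which hold at least 1. The E-box CANNTG, whose letters read the same on both strands, was found in all 4 windows and in 66.2% of all windows. The ETS core CCGGAAG, searched on both strands, matched none of the 4 and 6.91% of all. So the pair that was higher holds the window richest in CpG and the window with none, and neither motif separates the pairs.

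Among the laminin alpha chains, Lama3 set the tissues furthest apart. Lama3, best known as the alpha chain of epithelial basement membranes (ENSMUSG00000024421), measured 1551, 1985 and 833.5 normalized counts in mesentery on chow (A, B, C) and 1111, 1313 and 831 in mesentery on high fat diet. In epididymal fat it measured 65.79, 42.57 and 134.8 on chow and 110.2, 71.85 and 40.34 on high fat diet. The lowest mesentery library was thus well above the highest epididymal one. The log2 change, epididymal minus mesentery on log2(value + 1), was −4.22 with SE 0.451 on chow (adjusted p = 6.01e-05) and −3.94 with SE 0.451 on high fat diet (adjusted p = 0.00014, limma, adjusted over all 22238 genes tested). It passed under all 27 alternative settings on both diets.

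Per kilobase of exon, which allows chains to be compared with each other, Lama3 made up 30% to 48% of laminin alpha transcripts in mesentery on chow and 34% to 45.8% on high fat diet. In epididymal fat the share was 2.49% to 8.77% on chow and 3.34% to 8.74% on high fat diet. In mesentery it therefore stood beside the vessel chains Lama4 and Lama5, which took 23.5% to 37.2% and 22.3% to 27.9% on chow. Lamb3, a beta chain that joins Lama3 in an epithelial laminin, was low throughout at 0 to 129.5 normalized counts over the 12 libraries, with no call in any comparison.

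**Figure D1:**
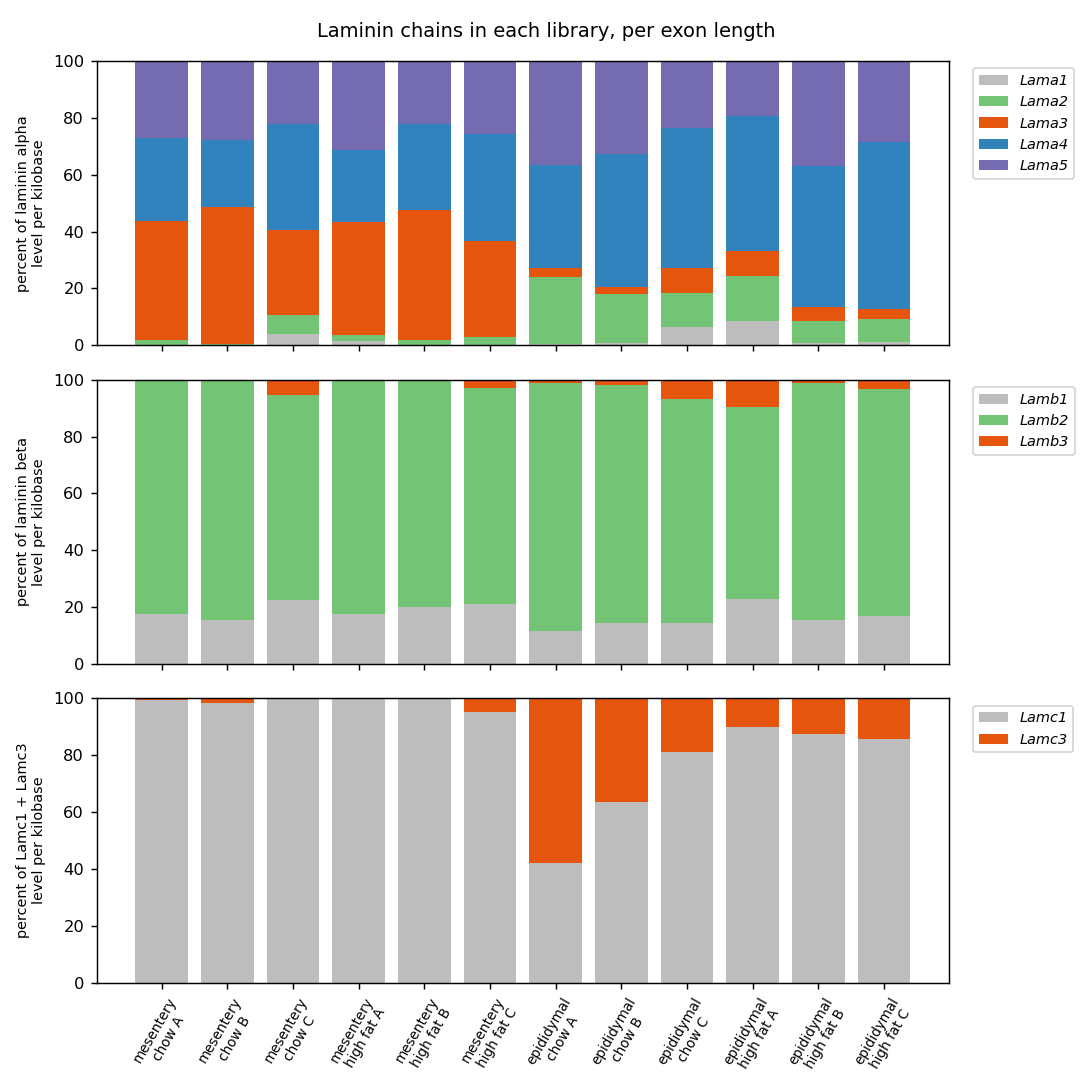
Stacked bars give, for each of the 12 libraries (x axis), the percent of the summed level per kilobase of exon contributed by each laminin alpha chain, each beta chain, and Lamc1 and Lamc3 of their sum (y axes, 0 to 100%). Lama3 takes 30% or more of the alpha chains in every mesentery library and under 9% in every epididymal one, and Lamc3 is largest in epididymal fat on chow.

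The Lama3 difference runs beside markers of exocrine pancreas, an organ that lies in the mesentery. All 7 acinar markers were lower in epididymal fat on both diets. Their summed level in mesentery was 155157, 121925 and 23335 on chow and 92912, 77638 and 48727 on high fat diet (A, B, C), against 183 to 550 in the epididymal libraries, each of which had between 1 and 5 of the markers at 0. The mesentery chow library with the least acinar signal, C, held Lama3 at 833.5, against 1551 and 1985 in the others. Between A and B the order differed: on both diets A had the higher acinar sum and B the higher Lama3. The endothelial marker sum in mesentery was 150673, 159052 and 109678 on chow and 111561, 123606 and 104574 on high fat diet (A, B, C). Within each of these groups it had the same order of libraries as Lama3. The 6 of 7 epithelial markers in the table summed to 84.2 to 1306 in mesentery and 83.5 to 286 in epididymal fat, with none called, and in library A of mesentery on high fat diet 4 of them, Krt18, Cdh1, Cldn3 and Cldn7, were at 0 while Lama3 measured 1111. The part of acinar or endothelial cells in the Lama3 values was not tested.

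Lama2, the alpha chain of muscle and fibroblast basement membranes (ENSMUSG00000019899), went the other way on chow. It measured 103.6, 35.84 and 281.6 in mesentery and 697.8, 449.2 and 276.8 in epididymal fat on chow. On high fat diet the values were 99.14, 67.91 and 98.81 in mesentery and 302.4, 175.1 and 151.5 in epididymal fat. Groups overlapped on chow through library C of both tissues, and did not overlap on high fat diet.

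For Lama2 the log2 change was 2.11 with SE 0.587 on chow (adjusted p = 0.0311, limma) and 1.19 on high fat diet (adjusted p = 0.276). The chow call was lost under 7 of 27 alternatives: without mesentery chow A or B, or epididymal chow A or B (adjusted p between 0.0874 and 0.144), with limma without the trend, in a fit to the chow groups alone and with edgeR's quasi-likelihood test (adjusted p = 0.0711). Without the libraries numbered 87 and 88 the chow change was 3.17 (adjusted p = 0.00202). Of 8 fibroblast markers, 6 were called higher in epididymal fat on chow and 8 on high fat diet, where Lama2 was not called. Their sum was 6930 to 10599 in mesentery and 18742 to 57680 in epididymal fat on chow, and 4831 to 10455 and 44718 to 61297 on high fat diet. In the epididymal pad, high fat diet against chow gave the fibroblast markers a median log2 change of 1.61 and Lama2 one of −1.14. The same median was −0.91 for smooth muscle and pericyte markers, −2.21 for adipocyte and −0.73 for mesothelial ones. For macrophage and leukocyte markers it was 3.39. Within the chow group of the pad the fibroblast sum was 57680, 40412 and 18742 (A, B, C), the same order of libraries as Lama2. In the other groups the orders differed. The part of any of these cells in the Lama2 values was not tested.

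The vessel chains themselves were not called by limma. Lama4, the chain of mature endothelium, measured 1222, 1093 and 1162 in mesentery on chow, 800.6, 975.7 and 1036 in mesentery on high fat diet, 797.3, 897.5 and 852.7 in epididymal fat on chow and 672.3, 836.6 and 798.4 in epididymal fat on high fat diet. Its chow groups did not overlap between tissues, yet the log2 change of −0.45 had an adjusted p of 0.091 (limma). Lama5, a chain of shear-exposed and mature vessels, measured 1060, 1223 and 656.1, then 934.3, 670.8 and 662 in mesentery on chow and high fat diet, and 765.2, 589.9 and 384, then 258.6, 587.2 and 364.5 in epididymal fat.

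Lama5 had log2 changes of −0.76 on chow (adjusted p = 0.168) and −0.97 on high fat diet (adjusted p = 0.0991, limma). As shares of the alpha chains, Lama4 took 36.1% to 49.4% and Lama5 23.6% to 36.7% in epididymal fat on chow. Lama1, an embryonic chain, measured 95.74, 34.6, 88.85 and 97.81 in the 4 libraries numbered 87 and 88 and 0.896 to 13.21 in the other 8. A floor of 3 reads is worth 2.12 to 4.22 normalized counts.

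Among beta chains, Lamb1 (ENSMUSG00000002900), which with Lamc1 completes most laminins of early and capillary basement membranes, was lower in epididymal fat on both diets. It measured 914.4, 929.2 and 833.5 in mesentery on chow, 826.8, 853.8 and 651.1 in mesentery on high fat diet, 513.8, 496.9 and 304.3 in epididymal fat on chow and 347.4, 397.2 and 375.1 in epididymal fat on high fat diet. No epididymal library reached the lowest mesentery one. The log2 change was −1.06 with SE 0.212 on chow (adjusted p = 0.00513) and −1.05 with SE 0.212 on high fat diet (adjusted p = 0.00844, limma). Neither call held when libraries were centred on 9 endothelial markers, as described with those markers. Lamb2, the chain of arterial and specialised membranes, took 67.6% to 87.2% of beta chain transcripts per kilobase in every library and was not called, with log2 changes of −0.55 on chow (adjusted p = 0.375) and −0.996 on high fat diet (adjusted p = 0.105).

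Lamc3 (ENSMUSG00000026840), a gamma chain of a few specialised basement membranes that lacks the nidogen-binding region of Lamc1, was close to absent from mesentery. It measured 2.277, 7.168 and 0 in mesentery on chow, 0, 0 and 14.82 in mesentery on high fat diet, 655.5, 335.4 and 92.93 in epididymal fat on chow and 39.35, 79.28 and 67.24 in epididymal fat on high fat diet. Every epididymal library was above every mesentery one. The log2 change was 6.52 with SE 1.19 on chow (adjusted p = 0.00296) and 4.59 with SE 1.19 on high fat diet (adjusted p = 0.0308, limma). On chow the fibroblast markers summed to 6930 to 10599 in mesentery and 18742 to 57680 in epididymal fat. The smooth muscle and pericyte markers summed to 1325 to 1599 and 12301 to 22484. On high fat diet the epididymal sums were 44718 to 61297 and 5967 to 11955. The adipocyte, mesothelial and lymphatic sums were also higher in epididymal fat on chow, while the acinar sum was lower. The part of any of these cells in the Lamc3 values was not tested.

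Several mesentery libraries were at or under the floor, so the size of the Lamc3 change is uncertain. On chow it ran from 5.20 to 7.29 over the alternatives, which include other tools, pseudocounts, centrings and left-out libraries. The high fat change ran from 3.03 to 5.92, and its call was lost under 10 of 27 alternatives. These were the removal of mesentery high fat A or B, epididymal chow B or any of the epididymal high fat libraries (adjusted p between 0.0519 and 0.126), edgeR's quasi-likelihood test (adjusted p = 0.129), limma without the trend, a fit to the high fat groups alone and a filter at a mean of 50. In epididymal fat the 3 chow values did not overlap the high fat ones, but the log2 change of −2.18 had an adjusted p of 0.880. Its share of the summed Lamc1 and Lamc3 level per kilobase was 19.0% to 57.7% in epididymal fat on chow, 9.93% to 14.3% there on high fat diet, and at most 4.88% in mesentery. Lamc1, the gamma chain of most laminins, was not called (log2 change 0.26 on chow, adjusted p = 0.562).

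**Figure D2:**
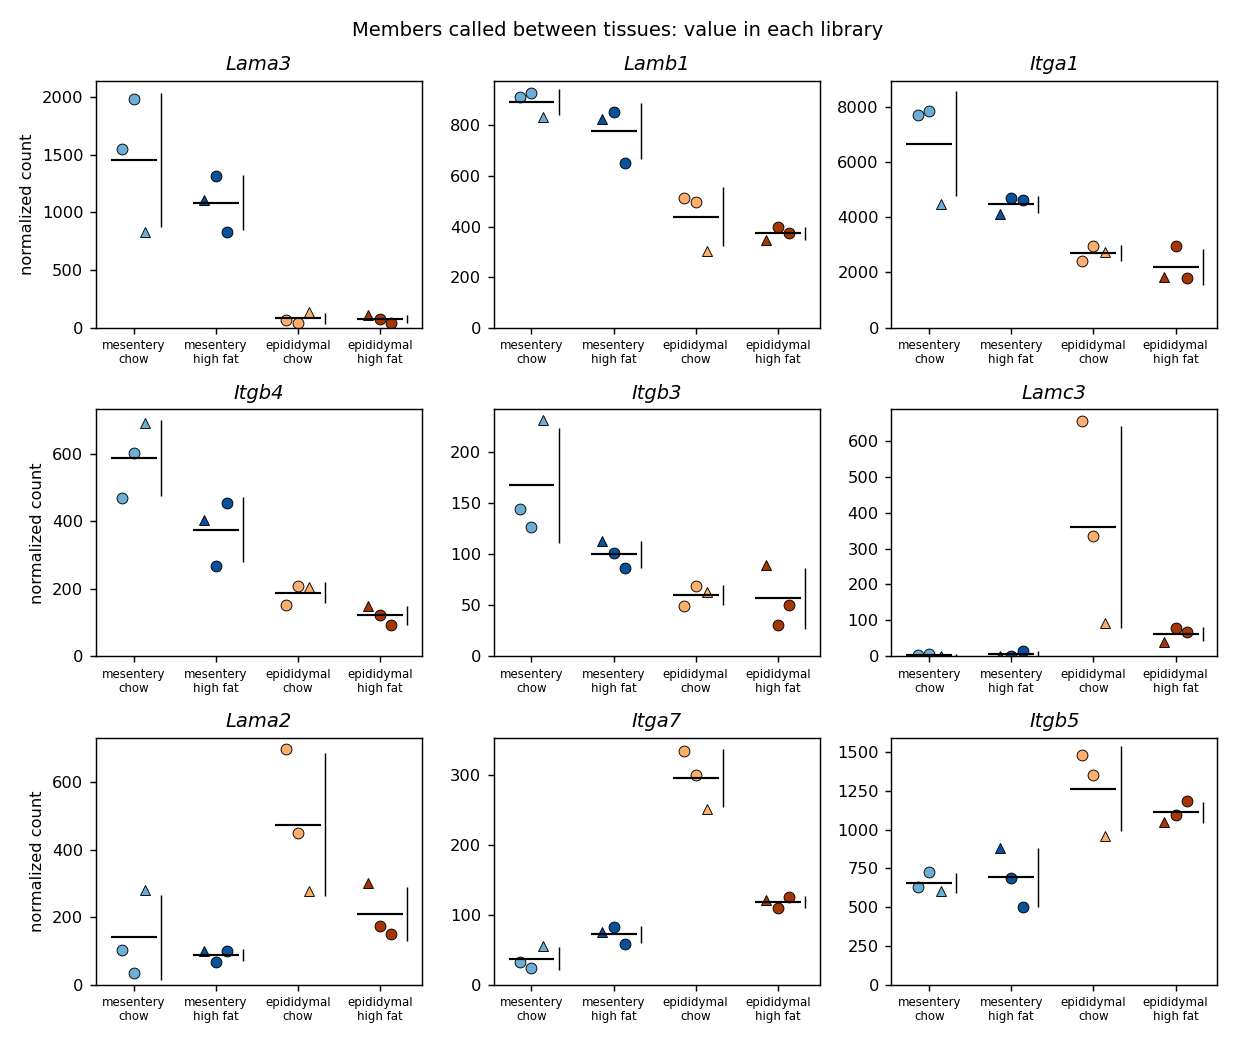
Normalized counts (y axes, from 0) of the 9 members called between tissues in the 4 groups (x axis). Points are libraries, triangles those numbered 87 or 88, horizontal lines the means and vertical lines 1 SD (n = 3, cut at 0). For Lama3, Lamb1, Itga1 and Itgb4 all epididymal points lie below all mesentery points on the same diet.

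The integrins that bind laminin moved in both directions. Itgb4 (ENSMUSG00000020758) pairs with Itga6 and links laminin to intermediate filaments. It measured 469.1, 603 and 692.7 in mesentery on chow, 402.2, 267.5 and 454.5 in mesentery on high fat diet, 151.9, 206.8 and 206.3 in epididymal fat on chow and 148.4, 123 and 91.3 in epididymal fat on high fat diet. Tissue groups did not overlap on either diet. The log2 change was −1.63 with SE 0.272 on chow (adjusted p = 0.00162) and −1.62 with SE 0.272 on high fat diet (adjusted p = 0.00275, limma). As for Lamb1, neither call held under the centring on 9 endothelial markers.

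Itga6, its partner and the main laminin receptor chain of endothelium, measured 4310, 4295 and 2553 in mesentery on chow, 2227, 2797 and 2676 in mesentery on high fat diet, 2276, 2930 and 2539 in epididymal fat on chow and 1503, 2780 and 1808 in epididymal fat on high fat diet. These groups overlapped and no comparison passed (log2 change −0.49 on chow, adjusted p = 0.251). Itga3, a receptor for laminins with Lama5, measured 172 to 352 over the 12 libraries, with a tissue change of −0.03 on chow (adjusted p = 0.958). The difference between tissues in Itgb4 thus stood beside a change of its alpha partner Itga6 in the same direction that did not pass in the main fit.

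Itga7 (ENSMUSG00000025348) is the laminin receptor chain of muscle and of vessel wall muscle cells. It measured 33.02, 23.3 and 54.91 in mesentery on chow and 334.4, 300.6 and 251.2 in epididymal fat on chow. On high fat diet it measured 75.75, 81.77 and 58.3 in mesentery and 121.4, 109 and 125.3 in epididymal fat. The gap between tissues was wide on chow and narrow on high fat diet, with no overlap on either.

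For Itga7 the log2 change between tissues was 3.04 with SE 0.351 on chow (adjusted p = 0.000109) and 0.72 on high fat diet (adjusted p = 0.265, limma). It took 0.552% to 1.93% of the laminin-binding alpha chains per kilobase in mesentery on chow and 8.39% to 12.4% in epididymal fat on chow. The 8 smooth muscle and pericyte markers summed to 1325 to 1599 in mesentery on chow, 1617 to 3848 in mesentery on high fat diet, 12301 to 22484 in epididymal fat on chow and 5967 to 11955 in epididymal fat on high fat diet, the same order of groups as Itga7, and 6 of them were called between tissues on chow. Other cell types' markers were also highest in epididymal fat on chow. The 6 adipocyte markers, all called on chow, summed to 63085 to 85648 there, 3938 to 13910 in epididymal fat on high fat diet and 3899 to 8618 in mesentery. The 6 of 7 mesothelial markers in the table summed to 405 to 758, 236 to 492 and 66.2 to 244 in the same groups, and the 6 lymphatic markers to 2664 to 4449, 1953 to 2483 and 802 to 1433. The part of any of these cells in the Itga7 values was not tested.

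The collagen receptor chain Itga1 (ENSMUSG00000042284), which binds the collagen of basement membranes, was lower in epididymal fat. It measured 7700, 7837 and 4463 in mesentery on chow, 4115, 4686 and 4613 in mesentery on high fat diet, 2405, 2963 and 2725 in epididymal fat on chow and 1830, 2954 and 1802 in epididymal fat on high fat diet. All 6 mesentery values exceeded all 6 epididymal ones. The log2 change was −1.26 with SE 0.246 on chow (adjusted p = 0.0044) and −1.06 with SE 0.246 on high fat diet (adjusted p = 0.018, limma).

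On high fat diet the Itga1 call was lost under 7 of 27 alternatives: without mesentery high fat B, epididymal high fat A or epididymal high fat C (adjusted p between 0.0516 and 0.0969), with edgeR's quasi-likelihood test (adjusted p = 0.0884), with limma without the trend and with both centrings on endothelial markers. The other collagen receptor chains, Itga2 on platelets and epithelia, Itga10 in cartilage and Itga11 on fibroblasts, measured 0 to 152.5 normalized counts and none was called.

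In the group that binds the RGD motif of fibronectin and vitronectin, 2 beta chains that pair with Itgav moved in opposite directions on chow. Itgb3 (ENSMUSG00000020689) measured 143.5, 126.3 and 230.9 in mesentery on chow, 112.2, 101.2 and 85.96 in mesentery on high fat diet, 49.34, 68.63 and 62.3 in epididymal fat on chow and 88.81, 30.56 and 50.25 in epididymal fat on high fat diet. Itgb5 (ENSMUSG00000022817), a vitronectin receptor chain, measured 629.7, 727.6 and 604 in mesentery on chow, 882.9, 690.2 and 503.9 in mesentery on high fat diet, 1485, 1355 and 957.9 in epididymal fat on chow and 1051, 1098 and 1185 in epididymal fat on high fat diet. On chow neither gene's groups overlapped.

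Itgb3 had a log2 change of −1.42 with SE 0.418 on chow (adjusted p = 0.0403) and −0.93 on high fat diet (adjusted p = 0.221, limma). Its call was the least stable: it held under 11 of 27 alternatives, and was lost with edgeR's quasi-likelihood test and when any 1 library of the chow groups, mesentery high fat A or B, or epididymal high fat C was left out (adjusted p between 0.0517 and 0.145). Itgb5 had a log2 change of 0.93 with SE 0.221 on chow (adjusted p = 0.0141) and 0.72 on high fat diet (adjusted p = 0.0647), and lost the chow call with limma without the trend and without mesentery chow A, epididymal chow A or epididymal chow B (adjusted p between 0.0551 and 0.0735 for these libraries). Itgav, the alpha chain that both use, measured 128.1 to 303.5 with no call (−0.20 on chow, adjusted p = 0.750).

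Itga5, the fibronectin receptor chain, measured 950.8, 1125 and 577.2 in mesentery on chow, 780, 867.6 and 673.9 in mesentery on high fat diet, 603.8, 576.9 and 396.2 in epididymal fat on chow and 555.4, 626 and 727.6 in epididymal fat on high fat diet. Its chow change of −0.72 had an adjusted p of 0.0817 (limma). The remaining members of this group were low and uncalled: Itga8, a chain of muscle-like cells, Itgb6, an epithelial chain, and Itgb8, an activator of TGF-beta, measured 0 to 171.8. Itga4 and Itga9, receptors for Vcam1 and tenascin, measured 18.82 to 223.3 and 135.2 to 239.3, also with no call.

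Itgb1, the beta chain shared by most matrix receptors, had the highest mean level per kilobase of all members in each of the 4 groups. It measured 3447, 3650 and 2844 in mesentery on chow, 4260, 4080 and 4094 in mesentery on high fat diet, 5986, 6149 and 4315 in epididymal fat on chow and 3927, 6386 and 6529 in epididymal fat on high fat diet. The chow groups did not overlap between tissues, and the log2 change of 0.72 with SE 0.222 just missed the threshold (adjusted p = 0.0504, limma). On high fat diet it was 0.40 (adjusted p = 0.349). Itgb1, the beta partner of Itga1, was thus not lower in epididymal fat.

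The order of levels per kilobase gives the members highest in the libraries of each group, RNA of other cells included. In mesentery on chow Itgb1 came first at 812 ± 103 (SD, n = 3), above all others without overlap, followed by Itga6 at 412 ± 112, Lamb2 at 404 ± 123 and Itga1 at 358 ± 103, which overlapped with each other. In epididymal fat on chow the order was Itgb1 at 1344 ± 249, Itgb5 at 356 ± 77.3, Itga6 at 286 ± 36.4 and Lamb2 at 282 ± 110, the last 3 overlapping, with Itga1 next at 145 ± 15.1. In epididymal fat on high fat diet the leukocyte chain Itgb2 followed at 932 ± 455, overlapping with Itgb1 at 1376 ± 358. In mesentery on high fat diet Itgb1 was followed by Lamb2 at 326 ± 80.2 and Itga6 at 284 ± 33.3.

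Counted over all 37 members, 9 were called between tissues on chow, against 12.8% of all genes tested. Of these 4 were higher and 5 lower in epididymal fat, where the background was 7.32% higher and 5.47% lower. On high fat diet 5 were called, 1 higher and 4 lower, against 8.34% of all genes, 4.91% higher and 3.43% lower. The median log2 change of the members was 0.12 on chow and 0.35 on high fat diet, beside −0.08 and 0.06 over all genes, and the median size regardless of sign was 1.06 and 0.92 beside 0.68 and 0.56.

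The tissue groups did not overlap for 14 members on chow (7 higher, 7 lower), against 28.7% of all genes, and for 14 on high fat diet (8 higher, 6 lower), against 26.4%. Without the libraries numbered 87 and 88, 14 members were called on chow, 8 of them shared with the 9, beside 19.6% of all genes, and 7 on high fat diet, including all 5, beside 11.3%. Both tissue comparisons use the same spread estimate but different libraries. DESeq2 called 15 members on chow, the 9 with Itga5, Itgal, Itgb1, Itgb2, Itgb7 and Lama4, beside 17.9% of all genes. It called 9 on high fat diet, the 5 with Itgam, Itgb2, Itgb5 and Lamb2, beside 18.2%. With edgeR's quasi-likelihood test 7 of the 9 and 3 of the 5 were called, beside 8.92% and 4.59%.

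**Figure D3:**
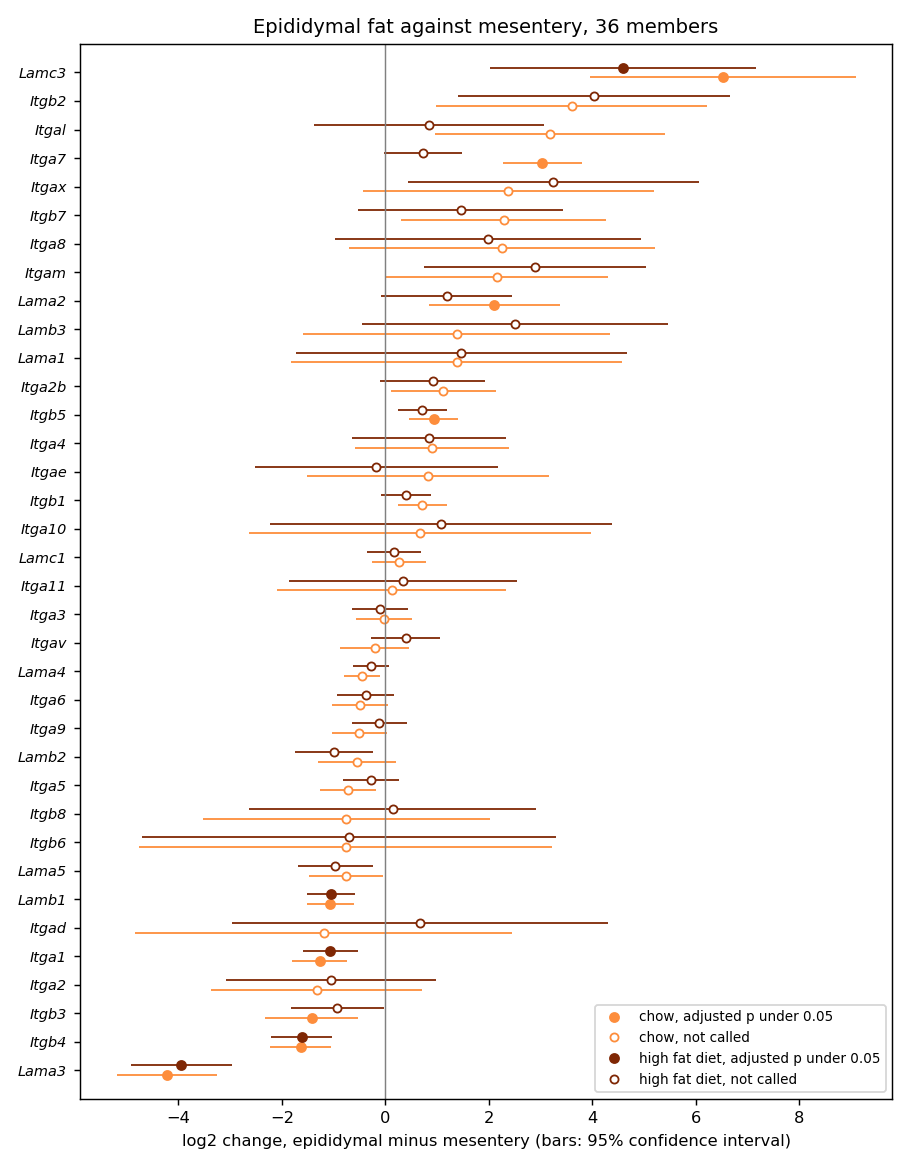
Log2 change, epididymal minus mesentery, of 36 members (y axis) for both diets, with 95% confidence intervals from limma (x axis, log2 scale). Filled points passed an adjusted p of 0.05: 9 on chow and 5 on high fat diet, with Lama3 lowest and Lamc3 highest.

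Several endothelial markers ran beside the members that were lower in epididymal fat. Of the 10, 5 were lower and 1 higher on chow, and 6 were lower and 1 higher on high fat diet. Pecam1, an adhesion molecule of endothelial junctions, had log2 changes of −0.90 and −1.02, while Cdh5, which drives the Cre, had 0.02 and 0.06. The 1 marker called higher was Cldn5, a claudin of endothelial tight junctions, at 4.25 and 2.50. The mean change over the 10 markers was −0.26 on chow and −0.70 on high fat diet, and without Cldn5 it was −0.76 and −1.06. Their median was −0.92 and −1.04.

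Libraries were therefore also centred on the mean of the 10 markers and on that of the 9 other than Cldn5, both settings chosen after seeing the data. Centring on 10 moved the median of all genes from −0.08 to 0.18 on chow and from 0.06 to 0.76 on high fat diet, and centring on 9 moved it to 0.68 and 1.12. With 10 markers, 10 members were called on chow, 8 of them shared with the 9, beside 13.8% of all genes, and 10 on high fat diet, beside 24.6%. With 9 markers, 12 were called on chow, 6 of them shared with the 9, beside 29.7%, and 17 on high fat diet, beside 38.5%. Under both centrings Lama3 and Lamc3 were the members shared with the 5 on high fat diet.

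The lower values of Itga1, Itgb4 and Lamb1 depended on this choice. On chow their log2 changes were −1.01, −1.38 and −0.80 with 10 markers, and all passed. With 9 markers they were −0.50 (adjusted p = 0.039), −0.87 (adjusted p = 0.0979) and −0.30 (adjusted p = 0.449, limma), so that Itga1 alone of these passed. None of them passed on high fat diet under either centring. With 10 markers the values there were −0.36 (adjusted p = 0.194) for Itga1, −0.91 (adjusted p = 0.0731) for Itgb4 and −0.35 (adjusted p = 0.356) for Lamb1. With 9 markers they were −0.0051, −0.56 and 0.010 (adjusted p = 0.986, 0.267 and 0.982, limma), the sign of Lamb1 being turned. Lama3 on high fat diet was −3.24 with 10 markers (adjusted p = 0.00059) and −2.88 with 9 (adjusted p = 0.000505).

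The leukocyte integrins varied widely between libraries. Itgb2 measured 2.277, 17.92 and 39.42 in mesentery on chow, 385.3, 22.18 and 450.6 in mesentery on high fat diet, 123, 786.3 and 44.93 in epididymal fat on chow and 2803, 1477 and 4255 in epididymal fat on high fat diet. The dendritic cell and macrophage chain Itgax measured 0, 8.96 and 0, then 132.8, 11.09 and 49.4 in mesentery, and 2.349, 80.8 and 4.085, then 482.3, 211.4 and 680.9 in epididymal fat, in the same order of diets. In epididymal fat all high fat values of both genes exceeded all chow values.

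High fat diet against chow gave Itgb2 a log2 difference of 3.55 with SE 1.22 in mesentery (adjusted p = 0.654) and 3.98 in epididymal fat (adjusted p = 0.247), and Itgax 4.33 with SE 1.30 (adjusted p = 0.572) and 5.21 (adjusted p = 0.137, limma). None passed with limma, while DESeq2 called Itgax in epididymal fat (adjusted p = 0.0487). Epididymal chow B was high in both genes, and without it the Itgax difference in epididymal fat was 6.64 (adjusted p = 0.0357). The myeloid chain Itgam measured 2.688 to 42.24 in mesentery on chow and 142 to 344 in epididymal fat on high fat diet, and the lymphocyte chain Itgal 1.139 to 12.67 and 26.43 to 109.

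Itgb7, which pairs with Itga4 on gut-homing lymphocytes, ran from 17.08 in mesentery chow A to 449.4 in epididymal high fat C. Itgad, of macrophages, and Itgae, of tissue-resident T cells, measured 0 to 73.07 and 4.48 to 71.49. With limma the 7 leukocyte chains had no call in any of the 5 comparisons, and neither did they with edgeR's quasi-likelihood test. DESeq2 called Itgal (adjusted p = 0.0154), Itgb2 (adjusted p = 0.0113) and Itgb7 (adjusted p = 0.0237) higher in epididymal fat on chow, and Itgam (adjusted p = 0.0305) and Itgb2 (adjusted p = 0.0427) on high fat diet.

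The 10 macrophage and leukocyte markers varied widely as well. Their summed level was 1610, 2039 and 8305 in mesentery on chow, 17183, 4934 and 24721 in mesentery on high fat diet, 8542, 80041 and 5555 in epididymal fat on chow and 174183, 128481 and 315675 in epididymal fat on high fat diet. In mesentery on high fat diet the library lowest in the sum, B, was also lowest in Itgb2, and in epididymal fat on chow the library highest in the sum, B, was highest in Itgb2. All 10 were detected except Adgre1 in library B of mesentery on chow and Fcgr1 in library B of mesentery on high fat diet. Of the 10 markers 0 were called for diet in either tissue, 2 between tissues on chow and 7 on high fat diet, all higher in epididymal fat. Not every leukocyte chain followed this sum. In epididymal fat on chow library C had the lowest sum, yet Itgal measured 72.51 there and 20.36 in A. The 8 T and B cell markers summed to 222, 195 and 6275 in mesentery on high fat diet (A, B, C). In these libraries Itgal measured 43.96, 8.316 and 127.5, and Itgb7 58.92, 24.95 and 331. The part of leukocytes in the values of these integrins was not tested.

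**Figure D4:**
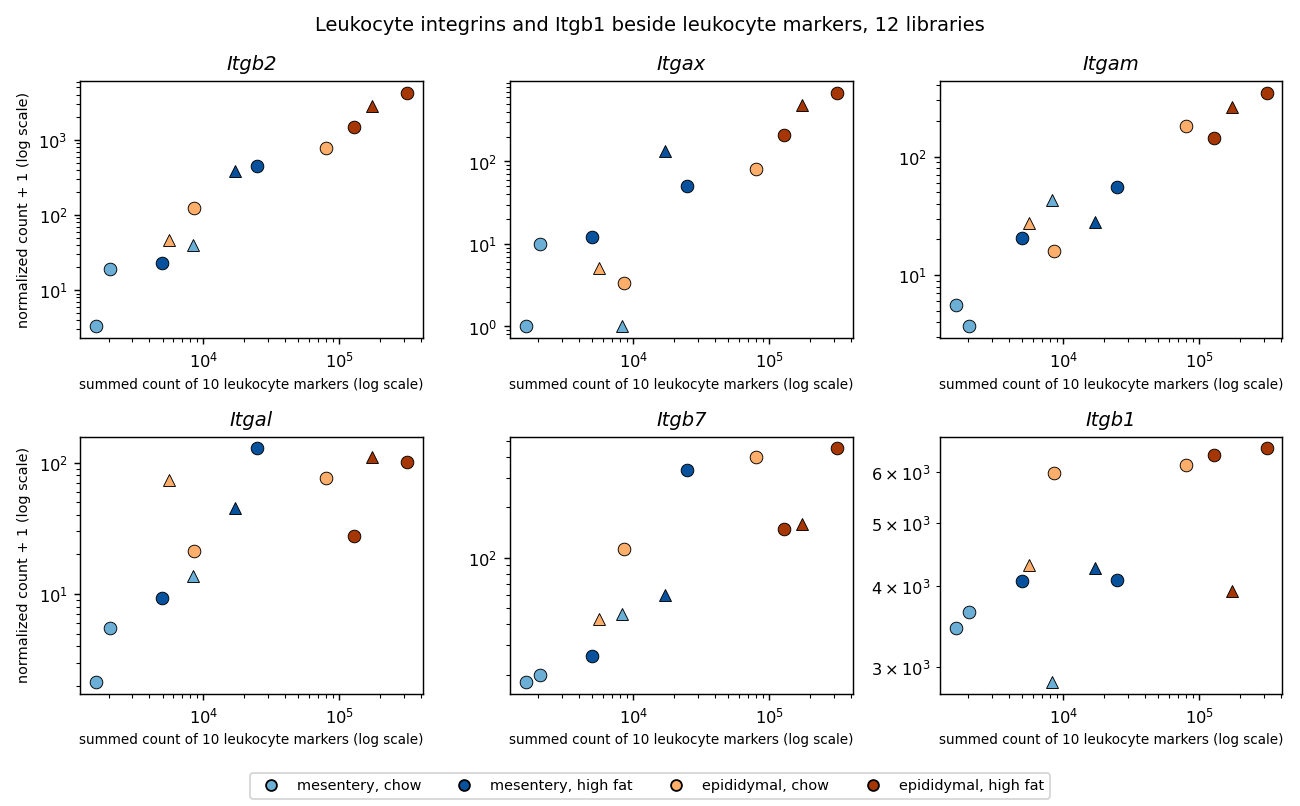
Normalized count + 1 of 5 leukocyte integrin chains and of Itgb1 (y axes, log scale) against the summed level of 10 leukocyte markers (x axes, log scale), 1 point per library, coloured by group, with triangles for libraries numbered 87 or 88. Itgb2 runs from 2.277 to 4255 normalized counts along the marker sum, while Itgb1 stays between 2844 and 6529.

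The platelet chain Itga2b, partner of Itgb3 in the fibrinogen receptor, measured 15.94 to 45.05 in mesentery on chow, 33.59 to 60.79 in mesentery on high fat diet, 55.6 to 68.42 in epididymal fat on chow and 75.73 to 98.27 in epididymal fat on high fat diet. Epididymal groups lay above mesentery ones on the same diet, but the log2 changes of 1.12 and 0.92 did not pass (adjusted p = 0.150 and 0.301, limma). The 5 of 6 platelet markers in the table summed to 104 to 172, 141 to 356, 773 to 3499 and 2209 to 5378 in the same groups. Of these 5, 2 passed the filter for testing and 1, Pf4, was called, higher in epididymal fat on both diets. The leukocyte marker sum was likewise highest in epididymal fat on high fat diet, as given above. Itgb3 had its higher values in mesentery, where the platelet marker sum was lowest. The part of platelets in the Itga2b and Itgb3 values was not tested.

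Diet gave no call among the 37 members in mesentery, where 0.0135% of all genes passed, or in epididymal fat, where 0.549% did. By unadjusted p under 0.05, 6 members in mesentery stood beside 6.15% of all genes, and 5 in epididymal fat beside 6.94%. With edgeR's quasi-likelihood test on the recovered reads 0 members were called in either tissue, beside 0.00450% and 0.130% of all genes, and with DESeq2 0 in mesentery and 2 in epididymal fat, Itga7 (adjusted p = 0.00221) and Itgax, beside 0.755% and 4.29% of all genes. The median log2 change of the members was −0.15 in mesentery and −0.08 in epididymal fat, beside −0.0023 and 0.10 over all genes.

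The diet groups did not overlap for 6 members in mesentery (3 higher, 3 lower on high fat diet), against 9.61% of all genes, and for 6 in epididymal fat (3 higher, 3 lower), against 13.5%. In mesentery Itga7, Itgb1 and Itgax lay higher and Itgb3, Itgb4 and Lama4 lower. In epididymal fat Itga2b, Itgax and Itgb2 lay higher and Itga7, Itgb4 and Lamc3 lower. Itgb4 lay lower in both, with log2 changes of −0.67 (SE 0.272, adjusted p = 0.728) and −0.65 (adjusted p = 0.596, limma). The 95% confidence interval of the mesentery change runs from −1.25 to −0.08 and that of the epididymal change from −1.24 to −0.06.

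**Figure D5:**
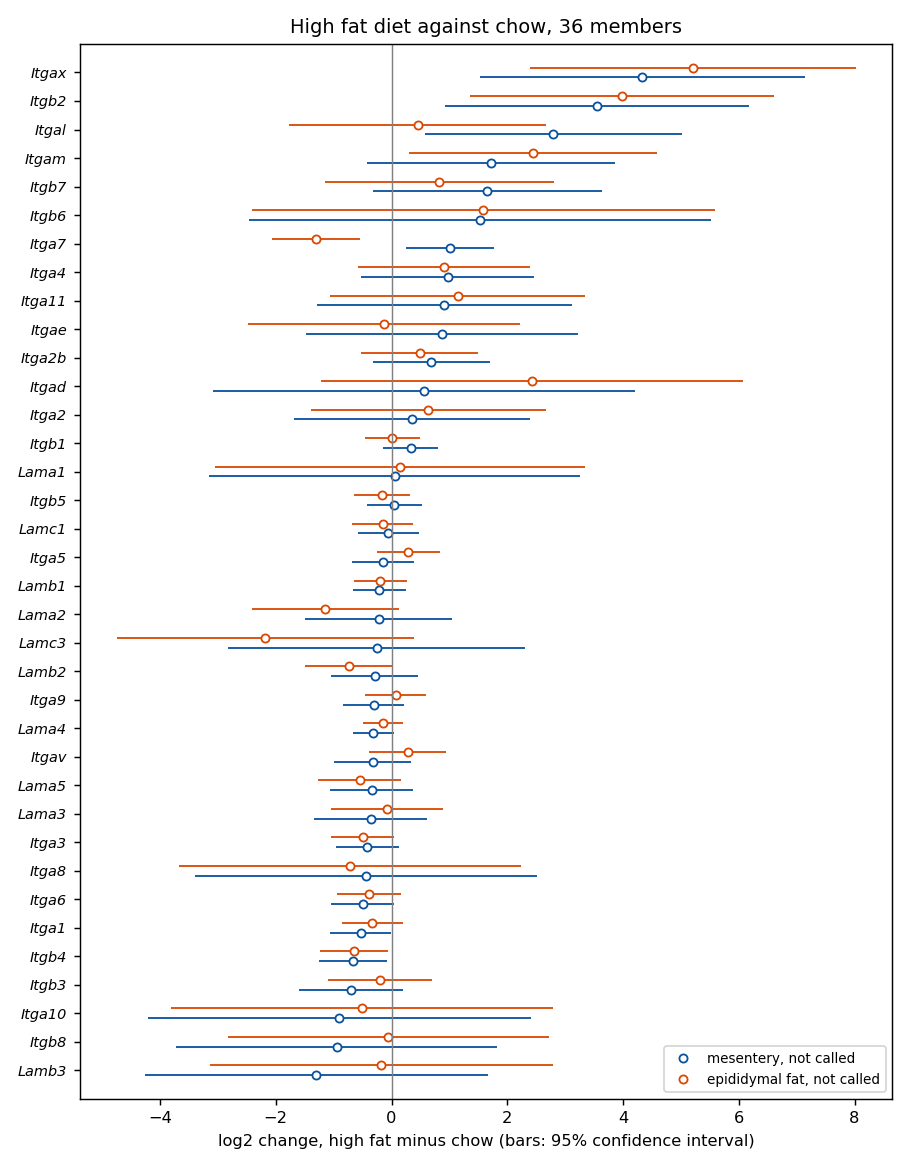
Log2 change, high fat diet minus chow, of 36 members (y axis) in mesentery and in epididymal fat, with 95% confidence intervals from limma (x axis, log2 scale). All points are open since none passed with limma, and Itgax and Itgb2 have the highest values in both tissues with wide intervals.

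Itga7 had diet values of opposite sign in the tissues. High fat diet against chow gave 1.01 with SE 0.351 in mesentery (adjusted p = 0.657) and −1.30 with SE 0.351 in epididymal fat (adjusted p = 0.172), and neither group pair overlapped. The difference of the diet effects was −2.31 with SE 0.497 (unadjusted p = 0.000437, adjusted p = 0.285, limma). No member passed this comparison with limma, in which 0.00450% of all genes did, and Itga7 was the 1 member with an unadjusted p under 0.05, beside 4.71% of all genes.

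The other members had differences between the diet effects with a median of 0.09 over all 37, beside 0.11 over all genes. Without mesentery chow C the Itga7 difference was −2.63 (adjusted p = 0.0499). DESeq2 also called it, beside 0.809% of all genes.

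Genes that act with these receptors and chains were tested in the same fit, in which 12.8% of all genes were called between tissues on chow and 8.34% on high fat diet. They were not followed through the centrings on endothelial markers. The 9 such markers other than Cldn5 had a mean change of −0.76 on chow and −1.06 on high fat diet. Of 30 genes of integrin activation and the adhesion complex, 7 were called on chow (3 higher, 4 lower in epididymal fat) and 5 on high fat diet (1 higher, 4 lower), and 0 for diet. Lims1, a scaffold of the integrin-linked kinase complex, was higher on chow at 0.77 (adjusted p = 0.00901), as was Itgb1bp1, which binds the tail of Itgb1, at 0.95 (adjusted p = 0.0153, limma). Fermt3, the kindlin of blood cells, was higher on chow at 2.37 (adjusted p = 0.0238, limma), its means being 32.1 ± 9.93 in mesentery and 206 ± 176 (SD, n = 3) in the fat pad. The leukocyte marker sum in these groups was 1610 to 8305 and 5555 to 80041, and its part in the Fermt3 values was not tested. Ptk2, the focal adhesion kinase, was lower at −0.99 (adjusted p = 0.00166), the means being 1977 ± 155 and 996 ± 106. Parvb, an actin-binding parvin of the integrin-linked kinase complex, was lower at −1.78 (adjusted p = 0.00226), and Tns2, a tensin that binds beta chain tails, at −0.90 (adjusted p = 0.0178).

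Of 10 partners of laminin and laminin receptors outside the integrins, 5 were called on either diet, each time 2 higher and 3 lower. Agrn, a heparan sulfate proteoglycan that binds laminin, had means of 1017 ± 379 in mesentery and 280 ± 114 in epididymal fat on chow (SD, n = 3), a log2 change of −1.87 (adjusted p = 0.00477, limma). Nid2, a nidogen that bridges laminin to collagen, was lower at −1.26 (adjusted p = 0.00879), and Hspg2, the proteoglycan perlecan, at −1.09 (adjusted p = 0.010). Sdc2, a syndecan, was higher at 2.71 (adjusted p = 0.00428) and Sparc, a matrix-binding protein, at 1.37 (adjusted p = 0.0185). On chow 6 of the 8 fibroblast markers were called higher in epididymal fat too, and their part in these values was not tested.

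Among 16 other integrin ligands, 10 were called on chow (8 higher, 2 lower in epididymal fat) and 6 on high fat diet (5 higher, 1 lower). Emilin1, an elastic fibre protein, was higher on chow at 3.02 (adjusted p = 0.000343), Vtn, vitronectin, at 3.93 (adjusted p = 0.0021), and Fbln5, a fibulin, at 1.11 (adjusted p = 0.00172, limma). Thbs1, thrombospondin, was lower at −3.10 (adjusted p = 1.15e-05), its means being 2883 ± 421 in mesentery and 349 ± 130 (SD, n = 3) in the fat pad. Spp1, osteopontin, was also lower on chow at −2.81 (adjusted p = 0.0225, limma). Vitronectin is the ligand of the receptor with Itgb5, and both were higher in epididymal fat on chow. Of the 8 smooth muscle and pericyte markers 6 were also called higher there on chow, as were 6 of the 8 fibroblast markers. The part of these cells in the values of the ligands and of Itgb5 was not tested.

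Diet called 1 of the 16 ligands: Spp1, a ligand of receptors with Itgav made in quantity by macrophages, was higher on high fat diet in epididymal fat. Its mean was 133 ± 50.1 on chow and 4060 ± 1301 on high fat diet (SD, n = 3), a log2 change of 4.94 (adjusted p = 0.00839, limma). The leukocyte marker sum was higher in the same libraries, as given above, and its part in the Spp1 values was not tested.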

How the data were processed

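The deposited file, named as normalized counts, holds 1 value per gene and library, a signal that is never negative. From their steps, the values were taken to be read counts divided by a size factor of each library. STAR 2.7.9a, featureCounts of Subread, DESeq2 1.34.0 and the build mm39 are named in the submitters' processing notes. Which annotation was used, and whether strand was, is not given in the sources used here. Whole reads were recovered from the steps of the values, with 100% of values whole within a relative tolerance of 1e-06. The lowest total of a listed gene was 51 reads.

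Genes with a mean of at least 10 normalized counts (22238 of 27825) were fitted on log2(value + 1) with limma 3.58.1 (lmFit, eBayes with trend, R 4.3.3), with 1 mean for each of the 4 groups and all 12 libraries. Benjamini-Hochberg adjustment ran within each of 5 contrasts over all genes tested, and a call is an adjusted p under 0.05. On this scale the changes of low genes can lie under or over those from edgeR and DESeq2. For Lamc3 limma gave 6.52 on chow and 4.59 on high fat diet, and edgeR gave 6.73 and 3.61. edgeR 4.0.16 (quasi-likelihood) and DESeq2 1.42.0 on the recovered reads were alternatives. The main limma fit, the fit with a replicate block, edgeR and DESeq2 were tested on simulated data with independent libraries. The other alternatives were not. Exon lengths are from GENCODE M21 on the older build and were used for levels per kilobase. The depth sets a floor of 3 reads, and floors cover counting error only. Members and lists were chosen with earlier results of these data known. Members called in any contrast, and those of textbook endothelial basement membrane, were described in full, and from each pathway list at most the 3 called genes with the lowest p per direction. No paired fit was used as the main one. The values of 1 member are not reported here, although it is in the counts over all 37.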

Additional observations from a re-analysis of the deposited data

Results flagged for a closer look

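For Itga7, the laminin receptor chain of muscle cells, every high fat library lay above every chow library in mesentery and below every chow library in epididymal fat. The difference of the diet effects, epididymal minus mesentery, was −2.31 on the log2 scale. The test of that difference gave an unadjusted p of 0.000437 and missed the threshold over all genes (adjusted p = 0.285, limma). The smooth muscle and pericyte markers summed to 1325 to 1599 and 1617 to 3848 normalized counts in mesentery on chow and high fat diet, and to 12301 to 22484 and 5967 to 11955 in epididymal fat. Their part in the difference was not tested.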

How the results depend on the processing

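Of the member changes that passed, or that had an unadjusted p under 0.05 in a diet comparison, 1 reversed under the 27 alternatives: Lamb1 between tissues on high fat diet, at 0.010 when centred on the 9 endothelial markers other than Cldn5. Members short of both were not followed through them. The count of members called moved with the test and the scaling, as did the share over all genes: DESeq2 gave 2 for diet in epididymal fat, 15 between tissues on chow, 9 on high fat diet and 1 for the difference of diet effects, while edgeR's quasi-likelihood test and limma without the trend each gave 3 between tissues on high fat diet. These last 2 settings called 4.59% and 4.70% of all genes there. A fit to the groups of the contrast alone gave 1 for diet in epididymal fat, beside 0.778% of all genes. Without the libraries numbered 87 and 88, 14 were called between tissues on chow. Centred on 10 or on 9 endothelial markers, 1 was called for diet in epididymal fat (beside 1.86% or 2.90% of all genes), and 10 or 17 between tissues on high fat diet. Leaving out 1 library at a time gave 0 to 1 for diet in epididymal fat (1 without epididymal chow B), 6 to 12 between tissues on chow, 3 to 7 on high fat diet (3 without mesentery high fat B, epididymal high fat A or C) and 0 to 1 for the difference (1 without mesentery chow C). With 1 library left out, the share of all genes called between tissues ran from 6.82% to 14.7% on chow and from 3.27% to 11.3% on high fat diet. The cause was not tested. With columns rescaled to the same total, the median of all genes moved from −0.0023 to 0.13 for diet in mesentery, from 0.06 to −0.12 between tissues on high fat diet and from 0.11 to −0.16 for the difference. In that setting 10 and 7 members were called between tissues on chow and high fat diet, beside 13.0% and 8.94% of all genes.

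Same-numbered libraries did not all deviate together (correlations of 0.0273, 0.530 and 0.583 on chow, −0.149, 0.146 and −0.115 on high fat diet). These correlations rest on deviations from means of 3 libraries, so they cannot decide whether same-numbered samples share mice. With a replicate block, 12 members were called between tissues on chow (among them Itgal and Itgb2), 7 on high fat diet (among them Itgax and Itgb2) and 0 in the other comparisons, beside 12.7% and 8.50% of all genes between tissues.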
